A study of Arabidopsis thaliana with 8 samples.

Results

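A total of 182 cut positions on Arabidopsis MIRNA precursors carried at least 5 counts in a hyl1 or a se library and no count in either wild-type or either fiery1 library. They made up 11.8% of the 1549 positions at which a tag of 26 nt or more started. They also made up 39.4% of the 462 positions with at least 5 counts in a hyl1 or se library, the other 280 being seen in wild type or fiery1 too. The positions were chosen by these counts, so their absence from wild type and fiery1 is a description and was given no test. Each position is named by its precursor and by the base at which the tags start, as numbered in the deposited files. The 182 positions lay on 51 of 90 loci with long tags.

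The assay was SPARE, a sequencing method that captures the 5′ ends left on the 3′ fragments of cleaved precursors, here with primers specific to the precursors. RNA came from 10-day-old seedlings grown in continuous light, labelled as whole bud tissue. There were 2 libraries for each of 4 genotypes, namely wild type (Col), Fiery1 -/-, Hyl1 -/- and Se -/-. The labels name no allele, and nothing in them says that the libraries of a genotype came from separate plants, so any p-value measures only the spread between libraries, which may be technical.

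A plant MIRNA precursor folds into a hairpin that carries the miRNA duplex in its stem. The nuclease DCL1 releases the duplex by cuts at its base-proximal and loop-proximal ends, starting from the base of the stem in some families and from the loop in others. HYL1 is a double-stranded RNA-binding protein and SERRATE (SE) a zinc-finger protein, and both work with DCL1 in placing and speeding the cuts. FIERY1 is a phosphatase, and in its absence a nucleotide by-product builds up that inhibits the XRN exoribonucleases, which degrade cleaved RNA from its 5′ end. A tag start can therefore be a cut by DCL1 or an end made in another way.

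Long tags, those of 26 nt or more, summed to between 25753 and 82159 counts in the hyl1 and se libraries. The wild-type libraries held 56554 and 121429 such counts, and fiery1 held 453388 and 795030. The fiery1 libraries were thus the deepest, and 1028 and 1056 positions in them held at least 5 counts, against 157 and 95 in hyl1 and 212 and 188 in se. Library 1 of hyl1 and library 2 of se carry a different source name from the other 6 libraries. Reads had no molecular identifiers and went through repeated PCR, so a count is a read and not an independent molecule.

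Of the 182 positions, 8 held at least 5 counts in 2 libraries, and their surroundings are shown because no other position reached the threshold more than once. They were picked after their values were seen. Sequences are from RefSeq TAIR10.1, written as DNA 5′ to 3′ with 30 bases before and 30 bases after the cut, and the capitals mark the first 10 bases of the tag.
MIR408:670, chr2:19319970-19320029, plus strand: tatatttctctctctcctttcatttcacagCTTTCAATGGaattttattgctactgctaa
MIR408:696, chr2:19319996-19320055, plus strand: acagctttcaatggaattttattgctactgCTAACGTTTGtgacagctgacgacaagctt
MIR159a:465, chr1:27713406-27713465, minus strand: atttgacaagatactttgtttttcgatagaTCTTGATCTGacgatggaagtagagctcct
MIR169a:634, chr3:4358937-4358996, minus strand: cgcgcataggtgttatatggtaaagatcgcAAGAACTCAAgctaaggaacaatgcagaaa
MIR169a:568, chr3:4359003-4359062, minus strand: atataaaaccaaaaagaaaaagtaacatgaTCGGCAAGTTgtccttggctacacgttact
MIR156c.3:1003, chr4:15415568-15415627, minus strand: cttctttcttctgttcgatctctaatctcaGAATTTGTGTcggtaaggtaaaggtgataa
MIR398c.2:803, chr5:4694861-4694920, plus strand: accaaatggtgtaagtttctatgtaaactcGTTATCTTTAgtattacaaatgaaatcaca
MIR779:2035, chr2:9560506-9560565, plus strand: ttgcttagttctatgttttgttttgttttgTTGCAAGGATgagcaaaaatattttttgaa

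The annotated hairpins of MIR408 and MIR169a, each with several of the positions, are shown next with both strands of the miRNA duplex in capitals. The miRNA of MIR408 acts on transcripts of copper proteins, and that of MIR169a on transcripts of NF-YA transcription factor subunits.
MIR408, chr2:19319814-19320031, plus strand: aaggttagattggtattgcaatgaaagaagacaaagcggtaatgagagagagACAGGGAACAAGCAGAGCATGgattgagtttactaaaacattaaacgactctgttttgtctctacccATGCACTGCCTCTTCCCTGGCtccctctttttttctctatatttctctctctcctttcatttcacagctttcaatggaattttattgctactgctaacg
MIR169a, chr3:4358994-4359219, minus strand: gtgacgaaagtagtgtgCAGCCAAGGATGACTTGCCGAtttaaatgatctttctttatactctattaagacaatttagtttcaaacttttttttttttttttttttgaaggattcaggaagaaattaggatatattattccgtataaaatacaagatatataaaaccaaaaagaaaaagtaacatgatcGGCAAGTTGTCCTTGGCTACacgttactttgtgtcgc

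In MIR408 the cut at position 670 (base 19320000 of chromosome 2) fell 46 nt past the 3′ strand, and that at position 696 fell 72 nt past it. They correspond to bases 187 and 213 of the 218-nt hairpin shown above, near its 3′ end. Position 670 held 1 and 212 counts in hyl1 and 0 and 292 counts in se. Position 696 held 23 and 0 counts in hyl1 and 127 and 1 counts in se. At both positions the high libraries were 1 of each mutant, and each had a library of the same mutant at 0 or 1. These and MIR159a:465 were the 3 positions with at least 5 counts in a library of both mutants.

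MIR159a gives a miRNA that acts on transcripts of GAMYB-like transcription factors, and its position 465 (base 27713435 of chromosome 1, minus strand) lay 22 nt before the 5′ strand, which was predicted by folding here. It held 0 and 50 counts in hyl1 and 0 and 211 counts in se. Wild type had 3 long-tag counts in all on this precursor, so its 0 there carries little, whereas fiery1 had 1321.

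In MIR169a, position 634 held 1 and 0 counts in hyl1 and 147 and 231 counts in se, so both se libraries were high and both hyl1 libraries low. This cut lay 44 nt past the 3′ strand, outside the annotated hairpin, and its commonest tag was 31 nt long where most tags ran to 51 nt. The cut lay 30 nt before the base at which short tags of MIR169a most often end, a stretch that a 31-nt tag spans. Position 568 of the same precursor lay 2 nt before the loop-proximal end and held 5 counts in each se library and 0 in each hyl1 library. Long-tag counts on MIR169a were 326 and 842 in hyl1 and 6806 and 19695 in se, so the 0 counts of hyl1 at position 568 carry little. Position 634 took 0.307% and 0% of them in hyl1 and 2.16% and 1.17% in se. MIR398c.2:803 held 69 and 182 counts in se and 0 in both hyl1 libraries, 92 nt past the 3′ strand of a second copper-related precursor. MIR156c.3:1003 held 77 and 155 counts in se and 0 in both hyl1 libraries, and it lay 87 nt before the 5′ strand of a precursor whose miRNA acts on transcripts of SPL transcription factors. MIR779:2035 was the single position with at least 5 counts in both hyl1 libraries, at 5 and 127, with 0 in both se libraries.

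The other 174 positions held at least 5 counts in 1 library each. In the number of mutant libraries with any count, 157 of the 182 positions (86.3%) were seen in 1, 20 in 2, 5 in 3 and none in all 4. Among the 280 positions that wild type or fiery1 shared, 105 (37.5%) were seen in 1, 74 in 2, 50 in 3 and 51 in 4. For 16 of the 25 positions seen in more than 1 library, the second highest count was 1.

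**Figure D1:**
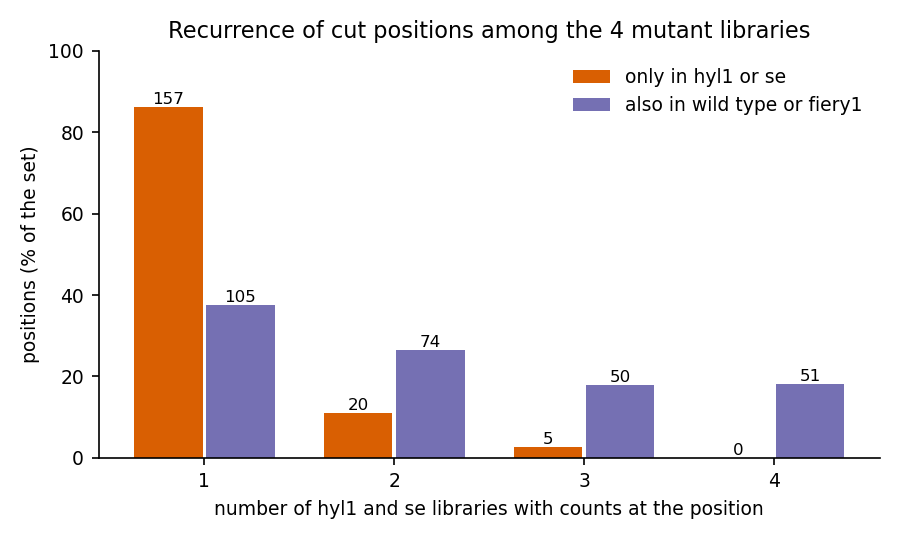
Bars give the percentage of positions (y axis) seen with at least 1 count in 1, 2, 3 or 4 of the hyl1 and se libraries (x axis), with the number of positions above each bar. Of the positions absent from wild type and fiery1, 157 were seen in 1 library and 0 in 4, against 105 and 51 of the positions also seen in wild type or fiery1.

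Replicates of a genotype shared few of the positions. Of 68 with at least 5 counts in se library 1, 9 (13.2%) had any count in se library 2, and of 58 in library 2, 10 (17.2%) had one in library 1. In hyl1 the same shares were 2 of 41 (4.88%) and 2 of 23 (8.70%). At the 280 shared positions they were 97 of 144 (67.4%) and 90 of 130 (69.2%) in se, and 56 of 116 (48.3%) and 45 of 72 (62.5%) in hyl1. The shares at the positions absent from wild type and fiery1 were lower in each of the 4 directions compared. The difference was not tested, because the choice of positions used the same counts.

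The part common to the 2 mutants was small. Hyl1 libraries held counts at 68 positions and se libraries at 126, and 12 positions had counts in both, which is 17.6% of the hyl1 set and 9.52% of the se set. With at least 5 counts in each mutant, 3 positions were common, or 4.76% of 63 and 2.46% of 122. The 280 positions also seen in wild type or fiery1 gave 130 in common, or 74.3% of 175 in hyl1 and 55.3% of 235 in se. Se libraries alone held 114 of the 182 positions and hyl1 libraries alone 56, against 105 and 45 of the 280. Most of the 182 were seen in 1 library, so being held by 1 mutant alone largely restates that.

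Of the 9 common positions outside the 3 given above, MIR169a:634 was high in both se libraries, as described above, and the other 8 had their counts almost wholly in 1 library. MIR156c.3:989, MIR165a:972, MIR171c:691 and MIR171b:660 were high in se library 2, at 319, 285, 189 and 33 counts, and held 0 to 3 counts in the other mutant libraries. MIR157a:567, MIR398b:582 and MIR156c.3:1125 were high in hyl1 library 2, at 189, 216 and 165 counts, each with 1 count in a se library. MIR166a:533 held 103 counts in hyl1 library 1 and 1 count in library 2 of hyl1 and of se. The precursors MIR165a and MIR166a give miRNAs that act on transcripts of HD-ZIP III transcription factors. Of the common positions, 8 had counts in library 2 of both hyl1 and se, and 4 had counts in hyl1 library 1 and se library 2, the pair with the differing source name.

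The threshold of 5 counts fell in a gap rather than in a crowd. The highest count of a position was 50 or more at 150 of the 182 positions (82.4%), 10 to 49 at 26 and 5 to 9 at 6. Below the threshold, 37 positions were seen in hyl1 or se and not in wild type or fiery1, of which 25 reached 1 count, 10 reached 2, 1 reached 3 and 1 reached 4. Among positions with at least 5 counts, the count had a median of 81 (range 5 to 283) in hyl1 library 1, 129 (8 to 352) in hyl1 library 2, 91 (5 to 250) in se library 1 and 220 (5 to 393) in se library 2. The lower and upper quartiles of these counts were 70.5 and 119 in se library 1 and 158 and 288 in se library 2. Positions that wild type or fiery1 shared had medians of 138, 173, 116.5 and 252 in the same order, with maxima of 9749, 3319, 3861 and 6695. In each of the 4 libraries the median and the highest count were lower at the positions absent from wild type and fiery1.

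**Figure D2:**
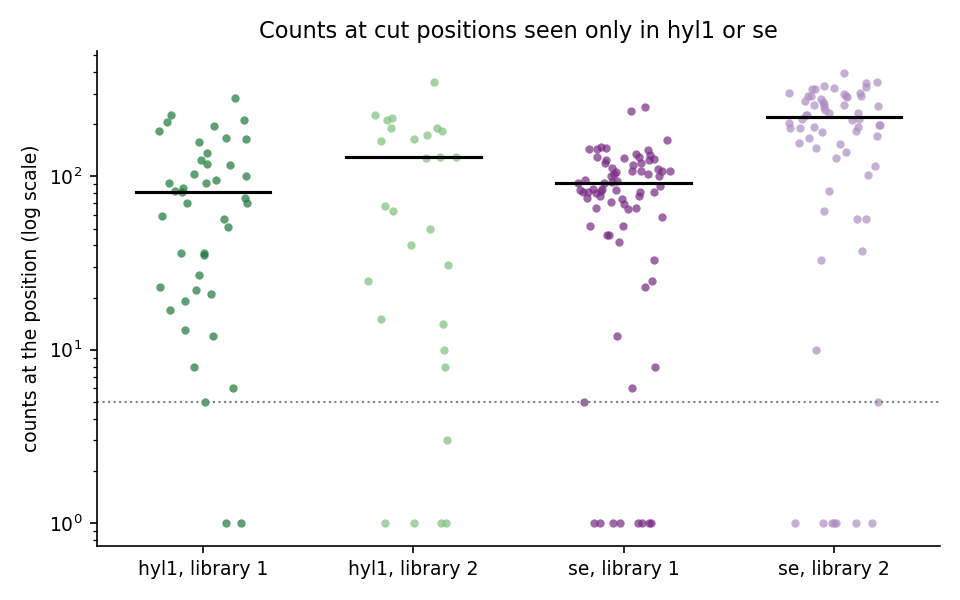
Each point is a position absent from wild type and fiery1 with at least 1 count in that library (y axis, counts on a log scale), in the 2 hyl1 and 2 se libraries (x axis). Horizontal bars mark the median of positions with at least 5 counts, 81, 129, 91 and 220 from left to right, and the dotted line marks 5 counts. Few points lie between the points at 1 count and those at 10 counts or more.

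At 174 of the 182 positions all counts came from 1 tag sequence, and 162 had a commonest tag of 51 nt, the longest length in the files. Among the other 280 positions, 200 had 1 tag sequence and 232 a commonest tag of 51 nt. Tag sequences were counted over all libraries. The 280 were seen in more libraries and include wild-type and fiery1 reads, so the sets differ in depth here. Every tag at the 182 positions matched TAIR10.1 exactly, and 20 positions had a tag listed with further alignment hits. No position had a tag under 26 nt in any library, so the short tags gave no second readout of the same ends. On precursors with short tags, each start lay 25 nt or more before the base at which those tags most often end. A tag reaching that base has 26 nt or more, so the absence largely follows from the choice of long tags.

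Each mutant library held such positions at 24.2% to 32.1% of its positions with at least 5 counts. They took 8.17% and 10.8% of the long-tag counts of the hyl1 libraries (mean 9.48% ± 1.86, SD, n = 2) and 15.2% and 15.0% of those of the se libraries (mean 15.1% ± 0.177, SD, n = 2). The se libraries were both higher in this share of long tags, by 5.63 percentage points on average. In it the groups did not overlap. The exact two-sided permutation test gave p = 0.33, the smallest value that the 6 arrangements of 2 against 2 allow. Tags of all lengths summed to 45653 and 35860 counts in hyl1 and to 299513 and 510438 in se, where most counts were of tags under 26 nt. The positions held 3684 and 2781 counts in hyl1 and 6349 and 12311 in se. Set against all tags, their share was thus lower in se than in hyl1. The positions were chosen by the same hyl1 and se counts. At 5 or more counts, se held 122 of them and hyl1 63. The difference thus depends on that choice and on counting long tags alone, and the test cannot decide it.

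Positions held by 1 library of the 8 were counted in each genotype. Of the positions with at least 5 counts in wild type, 2 of 80 (2.50%) and 14 of 138 (10.1%) had no count at all in any other library. In fiery1 it was 28 of 1028 (2.72%) and 23 of 1056 (2.18%). In hyl1 it was 38 of 157 (24.2%) and 17 of 95 (17.9%), and in se 59 of 212 (27.8%) and 43 of 188 (22.9%). For hyl1 and se these are again the 157 of the described positions that were seen in 1 mutant library. All 4 mutant values lay above the 2 wild-type and 2 fiery1 values, and the libraries differ in depth as given above; the part of depth in this was not tested.

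Se and hyl1 were compared at single positions with edgeR's quasi-likelihood test over all 368 positions with enough counts, with Benjamini-Hochberg adjustment over them. Of the 182 positions, 6 entered this test and 0 were called at an adjusted p under 0.05, against 0% called over all 368. These 6 passed the filter on low counts through the mutant libraries where they were high, so their fitted differences are not given. At an unadjusted p under 0.05 there were 58 of the 368 positions. DESeq2 called 87 of the 368, of which 1 was among the 6.

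The choice of positions did not name a place along the precursor, but it removed every position with a count in wild type or fiery1. Of the long-tag counts, the base-proximal end held 41.3% and 44.0% in wild type and 67.5% and 65.7% in fiery1. The places of the 182 are therefore not independent of the choice, and their differences from the other sets were not tested. From 5′ to 3′, 36 of the 182 (19.8%) lay before the 5′ strand of the duplex, 1 at its start, 3 inside it, 49 (26.9%) between the strands on the loop side, 4 at the loop-proximal end, 18 (9.89%) inside the 3′ strand, 2 at the base-proximal end and 69 (37.9%) beyond it. The 2 ends at which DCL1 releases the duplex, taken within 1 nt, thus held 6 of the positions (3.30%). Those ends held 54 of the 280 positions (19.3%) that wild type or fiery1 shared and 13.3% of the 1176 positions with at least 5 counts in wild type or fiery1. Conversely, the stretch before the 5′ strand held 13 of the 280 (4.64%) and 63 of the 1176 (5.36%), and the stretch between the strands 31 (11.1%) and 98 (8.33%). The share beyond the 3′ strand was near that of the shared positions, 110 of 280 (39.3%), and below that in wild type or fiery1, 645 of 1176 (54.8%).

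**Figure D3:**
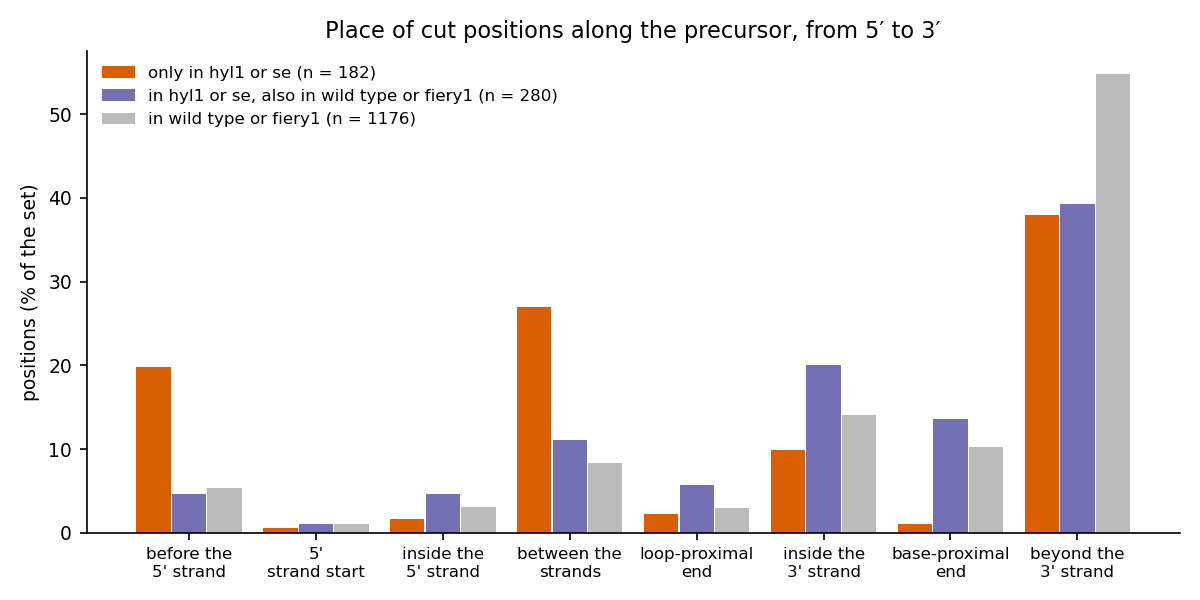
Bars give the percentage of positions (y axis) in 8 places from the 5′ to the 3′ side of the precursor (x axis) for the 182 positions absent from wild type and fiery1, the other 280 with at least 5 counts in hyl1 or se, and the 1176 with at least 5 counts in wild type or fiery1. The 182 have the highest bars of the 3 sets before the 5′ strand (19.8%) and between the strands (26.9%), and the lowest of the 3 at the base-proximal end (1.10%).

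Against the annotated hairpin, 33 positions (18.1%) lay upstream, 95 (52.2%) inside and 54 (29.7%) downstream, where the 280 shared positions divided into 13 (4.64%), 171 (61.1%) and 96 (34.3%). The positions before the 5′ strand lay a median of 90.5 nt from it, with the farthest at 408 nt. With both strands annotated rather than 1 predicted by folding, 142 positions could be placed, with 3 (2.11%) at the duplex ends and 27 (19.0%) before the 5′ strand. In both mutants the stretch beyond the 3′ strand held the most positions. Before the 5′ strand lay 14 of 56 (25.0%) in hyl1 alone and 20 of 114 (17.5%) in se alone, between the strands 10 (17.9%) and 35 (30.7%), and beyond the 3′ strand 20 (35.7%) and 43 (37.7%).

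Over counts, the 182 positions' share beyond the 3′ strand was 29.0% and 35.5% in hyl1 and 43.8% and 35.8% in se. This was the single place whose groups did not overlap, with an exact permutation p of 0.33, again the smallest possible. Over all long-tag positions the share there was 6.60% and 13.4% in hyl1 and 29.5% and 31.3% in se. The order is thus not particular to the 182, which were chosen by the same counts, and the test cannot decide it. Between the strands the shares of the 182 were 16.6% and 39.9% in hyl1 and 25.4% and 31.2% in se. Before the 5′ strand they were 20.1% and 14.6% in hyl1 and 11.5% and 26.1% in se. The hyl1 and se libraries overlapped at both places.

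The 6 positions at the duplex ends were each seen in 1 library. At the loop-proximal end, MIR171c:586 held 233 counts in se library 2, MIR319a:607 held 101 in hyl1 library 1, MIR319a:608 held 81 in se library 1 and MIR408:603 held 52 in se library 1. MIR171c gives a miRNA that acts on transcripts of GRAS-domain transcription factors and MIR319a one that acts on transcripts of TCP factors. The pair in MIR319a lay on adjacent bases, each in another mutant. At the base-proximal end, MIR169j/MIR169i:1203 held 106 counts in se library 1 and MIR2111b:584 held 125 in hyl1 library 1, on a precursor without a count in wild type or fiery1. The position at the start of the 5′ strand was MIR396a:1437, with 31 counts in hyl1 library 2, on the precursor of a miRNA that acts on transcripts of growth-regulating factors.

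Many of the positions lay close to an end present in the other genotypes, but such distances were not taken for other sets of positions. Fiery1 held at least 5 counts at 1028 and 1056 positions, so short distances alone do not set the described positions apart. The nearest position with a count in wild type or fiery1 was within 1 nt for 36 (19.8%), within 3 nt for 67 (36.8%) and within 10 nt for 110 (60.4%), with a median of 6 nt. Another 70 (38.5%) were more than 10 nt from any, and 2 lay on a precursor with none. MIR398c.3:595, with 225 counts in hyl1 library 1, had 1 count in fiery1 library 2 at the same base of the genome under the other entry of MIR398c. Measured to wild type alone, 24 (13.2%) were within 3 nt, 111 (61.0%) more than 10 nt away and 14 on a precursor with no wild-type count. Within the library that held it, 16 positions (8.79%) had a count at an adjacent base.

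A 0 carries more on a precursor that was deeply read. A position took a median of 6.49% of its precursor's long-tag counts in the mutant where it was highest, and the limit that 3 counts allow had a median of 0.164% in wild type and 0.024% in fiery1. Of the 182 positions, 14 lay on precursors with no wild-type count and 2 on precursors with no fiery1 count. Another 16 lay on precursors with wild-type counts too few to put the limit below the position's share in the mutant. The share was above the wild-type limit at 152 positions and above the fiery1 limit at 180. These limits cover counting error only.

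MIR169a and MIR156c held the most positions, 14 each. In MIR169a, 9 of the 14 lay between the strands, in the long loop region of the hairpin shown above. Over the whole precursor, se library 1 held 9 positions with at least 5 counts, and all counts at the 14 positions summed to 635 there (9.33% of its long-tag counts on MIR169a), se library 2 held 6, with a sum of 1179 (5.99%), and hyl1 library 2 held 1, with 227 (27.0%). The single high position of hyl1, MIR169a:563, lay on the same 3′ side of the loop as MIR169a:565, which held 325 counts in se library 2. MIR156c has 2 entries in the files on the same stretch of genome, and its positions took 36.9% and 55.1% of its counts in hyl1 and 40.1% and 72.0% in se. Its adjacent positions MIR156c.3:1002 and MIR156c.3:1003 held 344 counts and 155 counts in se library 2. With the entries of MIR156c and of MIR398c summed, 181 positions met the rule and 13 were common to the mutants.

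MIR159b, like MIR159a a source of a miRNA that acts on GAMYB-like transcripts, held 11 positions, 8 of them between the strands. Se library 1 held 7 of them with 46 to 120 counts each, from position 542 to position 649, and library 2 held 2, at 558 and 648, with 127 and 146 counts. These 2 lay next to positions 557 and 649 of library 1, with 120 and 83 counts. Position 558 also held 1 count in library 1. The positions took 11.7% and 3.73% of the counts of MIR159b in se and 2.45% and 0% in hyl1. The bases between the capitals of its hairpin hold the 8 positions between the strands, whereas 648 and 649 lie past the end of the sequence shown.
MIR159b, chr1:6220646-6220841, plus strand: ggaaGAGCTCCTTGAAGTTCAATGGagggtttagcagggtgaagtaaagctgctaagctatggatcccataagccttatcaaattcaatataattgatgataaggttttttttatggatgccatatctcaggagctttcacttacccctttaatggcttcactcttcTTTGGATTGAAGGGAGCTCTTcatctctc

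MIR156a held 11 positions, 5 of them before the 5′ strand, and 7 of the 11 in se library 1, where they took 60.2% of its counts, against 19.5% in se library 2 and 14.9% and 11.5% in hyl1. The highest, MIR156a:541, held 213 counts in se library 2, and MIR156a:590 held 189 in hyl1 library 2. MIR157c, whose miRNA also acts on SPL transcripts, held 10 positions, 5 of them between the strands, with 260 and 256 counts at MIR157c:732 and MIR157c:739 in se library 2. MIR398b also held 10, with 333 counts at MIR398b:472 and 300 counts at MIR398b:603 in se library 2 and 216 counts at MIR398b:582 in hyl1 library 2.

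**Figure D4:**
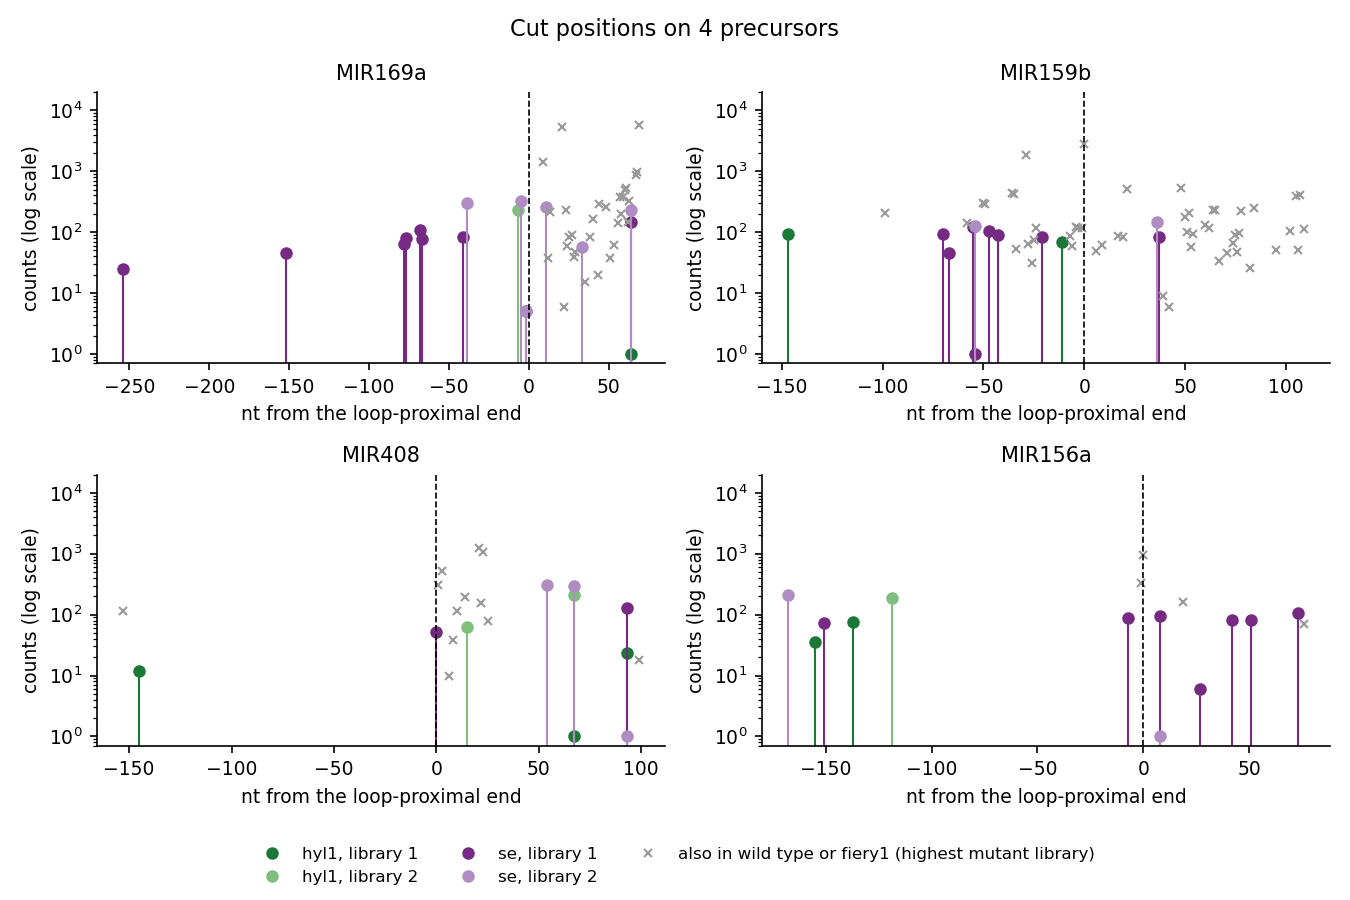
For MIR169a, MIR159b, MIR408 and MIR156a, coloured stems give the counts (y axis, log scale) of the positions absent from wild type and fiery1 in each mutant library, against distance in nt from the loop-proximal end (x axis, dashed line at 0), and grey crosses the highest mutant count of positions also seen in wild type or fiery1. In MIR169a and MIR159b most stems lie left of the dashed line, on the loop side, and in MIR408 the stems with 2 libraries lie to its right.

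On some precursors these positions were most of what a mutant library held. In MIR158a all 5 lay beyond the 3′ strand and took 99.5% and 99.3% of its long-tag counts in se, 195 of 196 and 138 of 139 counts. In hyl1 they took 0% of 53 counts in library 1 and 100% of 14 counts in library 2. MIR162a, whose miRNA acts on the DCL1 transcript, held 8, which took 82.7% and 98.5% of its counts in hyl1 and 30.1% and 59.5% in se, over totals of 110, 199, 701 and 907 counts. MIR827, whose miRNA acts on the transcript of the phosphate-related protein NLA, held 5, all in hyl1. They took 68.8% and 59.8% of 580 and 523 counts, and neither se library had a long-tag count on MIR827. Its highest positions were MIR827:1194 with 283 counts in hyl1 library 1 and MIR827:1174 with 183 counts in hyl1 library 2, and none of the 5 had counts in both hyl1 libraries. In 13 cases a single position made up all the counts of its precursor in a library, as at MIR2111b.

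The remaining positions with the highest mean CPM of a mutant, that is counts scaled to each library's long-tag total, were each in 1 library. In hyl1 library 2 they were MIR399b:1350 with 352 counts, on a precursor of the phosphate-related miRNA that acts on the PHO2 transcript, and MIR398c.2:688 with 173 counts. In se library 2, MIR398c.3:639 held 393 counts, the highest of all, MIR156c.2:1143 held 348, and MIR169l/MIR169k:1076 and MIR169l/MIR169k:967 held 329 and 320. In se library 1 the highest were MIR164b:581 with 250 counts, on the precursor of a miRNA that acts on NAC transcription factor transcripts, and MIR394b:1453 with 239 counts.

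By processing direction, families known to be cut from loop to base held 63 positions (34.6%), against 27.2% of all 1392 positions with at least 5 counts in any library and 35.0% of the 280 shared positions. Families listed as cut from base to loop held 78 (42.9%, against 49.9% and 54.3%). Copper-related families held 23 (12.6%, against 19.9% and 28.6%), phosphate-related 9 (4.95%, against 4.09% and 4.29%) and families that act on silencing-pathway transcripts 9 (4.95%, against 4.53% and 2.14%). The sulfate-related MIR395 family held 0, against 24 positions (1.72%), none of them with 5 counts in hyl1 or se. These lists overlap in part and are counts only.

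The first base after the cut was U at 40.1% of the positions, A at 28.0%, C at 24.2% and G at 7.69%. At the 280 shared positions it was U at 40.4%, A at 23.9%, C at 26.1% and G at 9.64%. The base before the cut was U at 31.9% and 29.6% of the 2 sets. In both sets U was the commonest base on either side of the cut and G the rarest after it.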

How the data were processed

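SPARE tags of 8 libraries, 2 for each of 4 genotypes, were deposited by the authors as counts of identical sequences with a precursor, a start, a length and a number of hits. Per the submitters' processing notes the build was TAIR10 and cutadapt was used. The aligner was not given in the sources used. The counts had no normalisation, as judged from whole numbers and unequal totals, and 13 blank counts, all in fiery1 and none at a described position, were left out. Counts of tags of 26 nt or more were summed by precursor, ignoring case, and start. Precursors were placed on RefSeq TAIR10.1 by exact tag matches, which held for 99.57% of counts. Duplex strands came from its annotation, or from RNAfold 2.7.2 with an overhang of 2 nt where 1 arm was annotated.

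Se and hyl1 were compared with edgeR 4.0.16 (quasi-likelihood, TMM, filterByExpr minimum 10, all 8 libraries, 1 term per genotype, Benjamini-Hochberg threshold 0.05), with DESeq2 1.42.0 as an alternative, in R 4.3.3. The edgeR fit was checked on simulated data with a fixed spread between libraries. That spread was far below the one between replicates at most described positions, so the check cannot tell how many calls to expect here. Library shares were compared with exact permutation tests in scipy 1.17.1. A test planned on tags under 26 nt gave no value, since the described positions had none. Named by rule were positions with counts in all 4 mutant libraries (0), those with at least 5 counts in both mutants (3) and the 10 highest by mean CPM in each mutant, 22 in all. Other positions and loci were named after their values were seen. The positions and lists were chosen with earlier results of these data known. The limit for a 0 was 3 counts, for counting error only.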

Additional observations from a re-analysis of the deposited data

How the results depend on the processing

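Of the 182 positions, 5 had at least 5 counts in both libraries of a mutant, 1 of them with counts in both mutants. Requiring 0 counts within 3 nt in wild type and fiery1 left 115 positions. Requiring 0 in wild type alone, an alternative chosen after seeing the data, gave 294, with 40 common to the mutants. With at least 5 counts in each mutant, 3 were common. Leaving out 1 library in turn gave 119 (without se library 1) to 198 positions (without fiery1 library 2), and 4 (without hyl1 library 2, and likewise without se library 2) to 16 common ones. Thresholds of 3, 10 and 20 counts gave 184, 176 and 167 positions with 12 common in each, and tags of all lengths gave 228 with 17. Weighted by counts, the share at the duplex ends was 0% in hyl1 library 2 and 6.13%, 3.77% and 1.89% in the other hyl1 and se libraries. In the comparison of se with hyl1, edgeR called 4 positions with DESeq2 size factors, DESeq2 called 87, and leaving out 1 hyl1 or se library gave 0 to 6, in fits where the lone library left is assumed to vary like those of the other genotypes. Library numbers did not pair the samples (correlations of deviations from -0.086 to 0.079), and the fit with a replicate block called 5 positions. The se minus hyl1 difference in the share of long-tag counts was 4.31 to 6.94 percentage points with 1 library left out. The positions were chosen by the same counts each time, and the share was taken of long tags in every setting. Depth limits the 0 counts of wild type most, since its libraries held 56554 and 121429 long-tag counts.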
